A study of Mus musculus with 5 samples.

Results

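Müller glia are the last cell class to be born in the retina, and the 10 genes described here are markers of these cells, several of which late progenitors also express: Rlbp1, Glul, Aqp4, Slc1a3, Apoe, Clu, Dkk3, Vim, Kcnj10 and Gpr37. They were taken by symbol from a deposited table of 24594 genes, all 10 were found, and all 10 passed the filter on low values. The study measured messenger RNA in bulk by sequencing, in 2 control libraries and 3 libraries labelled Zfp292-OE (the labelled libraries) from mouse retina. Control pups received a plasmid with green fluorescent protein (GFP) and the others one with Zfp292, a large nuclear zinc finger protein, each driven by the CAG promoter, which is active in most cell types and so not restricted to glia. Electroporation was done in living pups on postnatal day 0, retinas were collected 4 days later, and GFP-positive cells, named RPC in the labels, were sorted. Strain and sex are not given in the labels, nor is how cells with the Zfp292 plasmid came to carry GFP, and no label says that replicates are different animals, so the tests weigh only variation among these 5 libraries, part or all of which may be technical.

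Müller glia span the retina from its inner to its outer limit. They take up glutamate and turn it into glutamine, carry retinoids for the visual cycle, clear potassium and water through channels held at their endfeet, and secrete lipid carriers. They arise from the same progenitors as rods and bipolar cells, and share Notch effectors such as Hes1 and Hes5 with those progenitors.

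Reads assigned to genes ranged from 103096224 to 137683716 per library. Values are normalised read counts (reads divided by 1 factor per library), and genes were tested with limma on log2(value + 1) over 16316 genes with Benjamini-Hochberg adjustment, a gene being called at an adjusted p below 0.05. Zfp292 itself had 13288 and 14756 in control and 14631, 13197 and 15534 in the libraries labelled Zfp292-OE (log2 fold change 0.04, SE 0.14), so every direction below follows the labels, since no rise of Zfp292 was measured.

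Of the 10 genes, 5 fell in the labelled libraries (Clu, Apoe, Rlbp1, Gpr37 and Slc1a3), 1 rose (Glul) and 4 did not pass the test (Aqp4, Kcnj10, Dkk3 and Vim). Among all tested genes 7.38% fell, 10% rose and 17.4% were called in either direction. The median log2 fold change was −0.75 over the 10 genes and −0.06 over all tested genes. The groups did not overlap for 7 of the 10, which held for 49.9% of all tested genes. Together the 10 genes took 0.593% and 0.781% of reads in the control libraries and 0.324%, 0.278% and 0.356% in labelled libraries 1, 2 and 3. Apoe alone held 55.1% and 57.9% of these reads in control and 41.1% to 44.9% in the labelled libraries, and the other 9 genes took 0.266% and 0.329% of all reads in control and 0.187%, 0.164% and 0.196% in the labelled libraries. In bulk samples fewer cells of a type and less RNA per cell cannot be told apart. The calls needed the pair of controls. With control library 1 left out limma called none of the 10, and 0.00617% of all genes, and with control library 2 left out none, and 0.00618%. In these fits 6 and 5 of the 10 had an unadjusted p below 0.05, and Glul and the 5 that fell kept their directions.

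**Figure D1:**
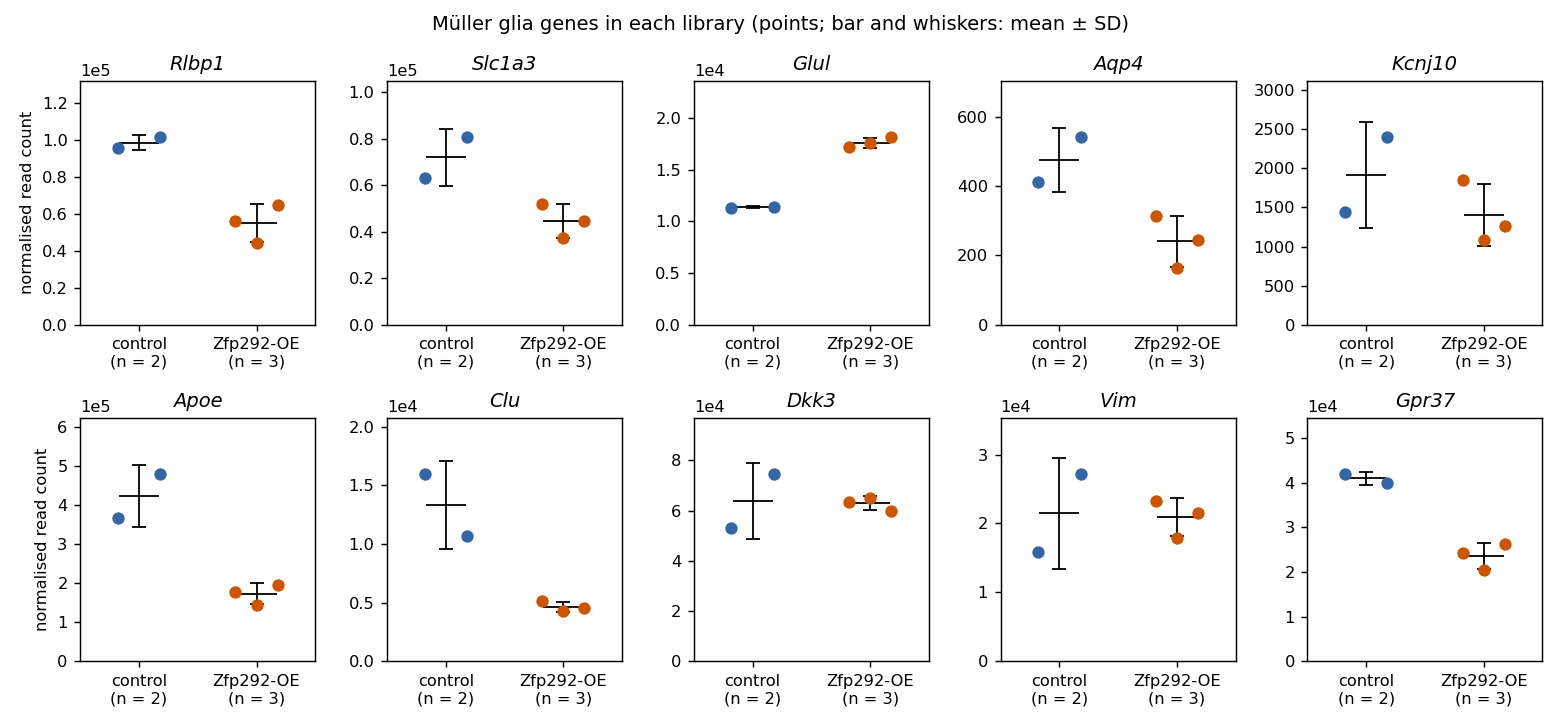
Normalised read count (vertical axes, each from 0) of the 10 Müller glia genes in the 2 control libraries (blue) and the 3 libraries labelled Zfp292-OE (orange), points left to right in the order of the library numbers, with mean ± SD. Apoe, Clu, Rlbp1, Slc1a3, Gpr37 and Aqp4 are lower in all 3 labelled libraries than in both controls, Glul is higher, and Dkk3, Vim and Kcnj10 overlap.

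Promoter windows are shown for Apoe, Rlbp1 and Slc1a3, 3 of the genes that fell, and at most 21 bases of each lie inside a GENCODE exon. Gpr37 also fell and has a window, but all 250 of its bases lie inside GENCODE exons and it is not shown. Each run holds the 250 bases before a start, 5′ to 3′ on the gene's strand (GRCm38.p6, RefSeq), with capitals at every match to any of 10 motifs on either strand. Promoter motifs were the TATA box, spelled TATAAA, the GC box, spelled GGGCGG, and the CCAAT box, which is named by its letters. Cores of factor sites were ACAAT for SOX factors, TAATCC for the photoreceptor factor CRX, and TGGGAA for RBPJ, the DNA-binding partner of Notch. The N-box of Hes repressors was searched as CACNAG. Nuclear factor I was searched by one arm of its site, TTGGC, and by the full palindrome, in which the arm and its reverse complement flank 5 bases of any kind. The last motif was DR4, a repeat bound by nuclear receptors such as the liver X receptors, made of AGGTCA, 4 bases of any kind and the same letters again.
Apoe chr7:19699189-19699438, minus strand: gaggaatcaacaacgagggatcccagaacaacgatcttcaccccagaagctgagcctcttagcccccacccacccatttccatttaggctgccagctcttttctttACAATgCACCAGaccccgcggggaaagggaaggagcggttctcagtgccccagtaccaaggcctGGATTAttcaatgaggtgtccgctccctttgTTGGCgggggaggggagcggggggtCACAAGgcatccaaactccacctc
Rlbp1 chr7:79387028-79387277, minus strand: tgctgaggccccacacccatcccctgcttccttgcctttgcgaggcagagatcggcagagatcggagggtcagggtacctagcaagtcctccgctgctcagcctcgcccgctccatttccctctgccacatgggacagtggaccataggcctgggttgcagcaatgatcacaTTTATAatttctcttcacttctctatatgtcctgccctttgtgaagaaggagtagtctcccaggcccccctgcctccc
Slc1a3 chr15:8710808-8711057, minus strand: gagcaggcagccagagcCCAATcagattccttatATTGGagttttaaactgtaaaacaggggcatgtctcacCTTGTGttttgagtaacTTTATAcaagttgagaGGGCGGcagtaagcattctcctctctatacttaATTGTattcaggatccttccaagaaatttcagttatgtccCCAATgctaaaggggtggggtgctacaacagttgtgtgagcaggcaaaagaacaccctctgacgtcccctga
The Apoe window held 2 N-boxes, 1 SOX core, 1 CRX core and 1 nuclear factor I arm. The Rlbp1 window held 1 TATA box and no other match, and the Slc1a3 window held 3 CCAAT boxes and 1 each of the TATA box, GC box, SOX core and N-box. Over 32851 RefSeq windows of the same length, 12.4% held the TATA box, 32.7% the GC box, 33.8% the CCAAT box, 27.7% the SOX core, 6.25% the CRX core and 21.6% the RBPJ core. The N-box was in 36.7%, the nuclear factor I arm in 41.5%, its full site in 0.0365% and DR4 in 0.0152%. None of the 10 motifs was found in all 3 windows shown, and the RBPJ core, full nuclear factor I site and DR4 were in none of them. This depends on the Apoe window chosen. Another Apoe window (chr7:19698622-19698871) held 2 overlapping matches to TATAAA, letters also matched in the Rlbp1 and Slc1a3 windows. Their positions differed. The first base lay 100 and 96 bases before the start in that Apoe window, 78 in Rlbp1 and 161 in Slc1a3. The remaining Apoe window (chr7:19698399-19698648) held 1 nuclear factor I arm. These are matches of letters and no evidence of binding. For Apoe, RefSeq gives 3 windows and the one with the farthest upstream start is shown. The shown Apoe and Rlbp1 windows lie inside the spans of these genes, which reach farther upstream, to 19701310 and 79392250. Of the 10 genes 7 matched a window, and Clu, Dkk3 and Aqp4 did not. The Gpr37 window held 1 GC box and 1 N-box.

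Retinoid and glutamate handling split, with the retinoid carrier and the glutamate transporter down and the glutamine-forming enzyme up. Rlbp1, which encodes the retinoid-binding protein CRALBP (chromosome 7, 79374865 to 79392250), had 95675 and 101387 in control and 55891, 44324 and 64708 in labelled libraries 1, 2 and 3. Every labelled library lay well under both controls, and the 2 controls were close to each other. Control averaged 98531 ± 4039 (SD, n = 2) and the labelled libraries 54974 ± 10223 (SD, n = 3), a level 1.81-fold lower (log2 fold change −0.86, SE 0.17, limma adjusted p = 0.0087).

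Slc1a3, the glutamate and aspartate transporter GLAST (chromosome 15, 8634124 to 8710807), had 63293 and 80637 in control and 51763, 37334 and 44549 in labelled libraries 1, 2 and 3. The groups did not overlap, but labelled library 1 lay nearer to control library 1 than the controls lay to each other. The change was 1.62-fold downward (log2 fold change −0.69, SE 0.17, limma adjusted p = 0.024). It was −0.57 with an adjusted p of 0.077 without labelled library 2, the library with the lowest value.

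Glul, the glutamine synthetase that uses the glutamate taken up through Slc1a3 (chromosome 1, 153899929 to 153909723), had 11318 and 11437 in control and 17165, 17568 and 18137 in labelled libraries 1, 2 and 3. Relative to the mean its SD was the smallest of the 10 genes in both groups, at 11378 ± 84.2 (SD, n = 2) and 17623 ± 489 (SD, n = 3). Glul rose 1.55-fold (log2 fold change 0.63, SE 0.13, limma adjusted p = 0.012). The call was lost when all libraries were scaled to equal totals (log2 fold change 0.41, adjusted p = 0.062) and likewise with quantile normalization (0.39, 0.086). Whether counting used strand is not stated, and 116 exonic bases of Glul overlap Teddm2 on the opposite strand, so reads from those bases cannot be told apart. The microRNA gene Mir8114 overlaps 93 exonic bases on the same strand.

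The ratio of Glul to Slc1a3 within a library, a pair chosen after their values were seen, does not depend on how libraries are scaled. It was 0.179 and 0.142 in control and 0.332, 0.471 and 0.407 in labelled libraries 1, 2 and 3. All 3 labelled libraries were above both controls, with means of 0.160 ± 0.0262 (SD, n = 2) and 0.403 ± 0.0696 (SD, n = 3). No test was made, since Glul was higher and Slc1a3 lower in every labelled library, which fixes the direction of the ratio.

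Of 11 other genes of glutamate and glutamine handling, 0 rose, 4 fell and 7 did not pass. The transporter Slc1a1, which neurons use, fell by 1.44 on the log2 scale (SE 0.23, limma adjusted p = 0.0035), and Slc1a2, the transporter GLT-1, fell by 0.91 (SE 0.16, adjusted p = 0.0047). The glutamine carrier Slc38a3, which moves glutamine across the membranes of glia, had 18301 and 17068 in control and 10518, 9342 and 11488 in labelled libraries 1, 2 and 3, a fall of 0.76 (SE 0.15, adjusted p = 0.0084). The cytosolic aspartate aminotransferase Got1 fell by 0.65 (adjusted p = 0.035), a call lost without labelled library 1 or 2. Slc1a4, a carrier of neutral amino acids, stood at −0.92 (adjusted p = 0.064) and the mitochondrial aminotransferase Got2 −0.50 (adjusted p = 0.10). Glul was thus the one gene among it and these 11 that was called upward.

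Of 10 tested genes around Rlbp1 in retinoid metabolism, 1 rose, 1 fell and 8 did not pass, and the eleventh, the pigment epithelium isomerase Rpe65, was under the filter. Rdh10, a retinol dehydrogenase that Müller glia express, had 25887 and 28309 in control and 14630, 12037 and 16082 in labelled libraries 1, 2 and 3 (log2 fold change −0.94, SE 0.16, limma adjusted p = 0.0043). The order of these 3 libraries was that of Rlbp1. Crabp2, a carrier that delivers retinoic acid to the nucleus, went the other way, from 412 and 364 to 4107, 2766 and 3766 (log2 fold change 3.17, SE 0.26, adjusted p = 0.00026). The opsin relative Rgr had −0.65 (adjusted p = 0.079) and the retinal reductase Dhrs3 −1.15 (adjusted p = 0.098).

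The 2 channel genes of Müller endfeet were low and did not pass the test. Aqp4, the water channel (chromosome 18, 15389394 to 15410982), had 411 and 541 in control and 313, 164 and 246 in labelled libraries 1, 2 and 3. The groups did not overlap, yet its spread was wide for its level, and it rested on 175 to 703 reads per library. The log2 fold change was −1.01 (SE 0.46, 95% interval −2.04 to 0.01, limma adjusted p = 0.16). Kcnj10, the inwardly rectifying potassium channel Kir4.1 that clears potassium (chromosome 1, 172341210 to 172374085), had 1436 and 2397 in control and 1845, 1088 and 1259 in the labelled libraries. Labelled library 1 lay between the controls, so the groups overlapped. Its log2 fold change was −0.45 (SE 0.31, 95% interval −1.15 to 0.26, adjusted p = 0.36), an interval that reaches from below the value of Rlbp1 to above 0.

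Of 9 tested genes of the dystrophin complex, which anchors these channels, and of other potassium and water channels, 0 rose, 1 fell and 8 did not pass. Kcnj16, a partner subunit of Kcnj10, was at 0 in all 5 libraries and was not tested. Sntb1, a syntrophin, fell by 0.97 on the log2 scale (limma adjusted p = 0.048), a call lost without labelled library 2 or 3, with no filter on low values (adjusted p = 0.066) and with quantile normalization (adjusted p = 0.072). Dystrophin itself, Dmd, had −0.51 (adjusted p = 0.084) and the dystrobrevin Dtna −0.64 (adjusted p = 0.17).

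The secreted proteins gave the largest changes of the 10 genes and also 1 of the smallest. Clu, the extracellular chaperone clusterin (chromosome 14, 65968483 to 65981548), had 15971 and 10676 in control and 5125, 4309 and 4530 in labelled libraries 1, 2 and 3. The labelled libraries were close together and the controls apart, at 13324 ± 3744 (SD, n = 2) and 4655 ± 422 (SD, n = 3). Clu fell by 1.49 on the log2 scale (SE 0.20, limma adjusted p = 0.0013), a level 2.81-fold lower. Clu and Gpr37 were the 2 genes of the 10 with the higher control value in control library 1, the other 8 being higher in control library 2.

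Apoe, the main lipid carrier secreted by glia (chromosome 7, 19696244 to 19701310), had 367626 and 479410 in control and 178744, 145406 and 196272 in labelled libraries 1, 2 and 3. Every labelled library was far under both controls, and their mean was 41.0% of the control mean. The log2 fold change was −1.29 (SE 0.18, 95% interval −1.69 to −0.88, limma adjusted p = 0.0017). Dkk3, a secreted relative of the Wnt inhibitors of the Dickkopf family (chromosome 7, 112116019 to 112159482), had 53265 and 74631 in control and 63642, 65208 and 59800 in the labelled libraries. All 3 labelled values lay between the 2 controls. Its log2 fold change was −0.00 (SE 0.16, 95% interval −0.37 to 0.36, adjusted p = 0.99), an interval that does not reach the falls of Apoe and Clu.

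Among 11 other genes of lipoprotein transport 1 rose, 5 fell and 5 did not pass, and the cholesterol exporters that load lipid onto Apoe fell. Abca1 had 9790 and 9430 in control and 2677, 2090 and 3587 in labelled libraries 1, 2 and 3 (log2 fold change −1.82, SE 0.23, limma adjusted p = 0.0010). Abcg1 had 5000 and 7637 in control and 2934, 2122 and 3355 in the same libraries (−1.17, SE 0.25, adjusted p = 0.013). In Abca1, Abcg1 and Apoe alike, labelled library 2 was the lowest and library 3 the highest of the 3.

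The apolipoproteins split. Apod, a lipocalin-type carrier and an apolipoprotein unrelated in sequence to Apoe, went from 268 and 533 to 2175, 2111 and 1895 (log2 fold change 2.44, SE 0.33, limma adjusted p = 0.0014). Apoc1, a small apolipoprotein of the gene cluster that holds Apoe, went from 2427 and 3420 to 1609, 1123 and 1516 (−1.04, SE 0.26, adjusted p = 0.023), a call lost without labelled library 2. The receptor Lrp1 had −0.58 (adjusted p = 0.074) and the lipase Lpl −1.03 (adjusted p = 0.16).

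Vim, which encodes the intermediate filament vimentin of glia and progenitors (chromosome 2, 13574311 to 13582826), had 15803 and 27180 in control and 23250, 17911 and 21569 in labelled libraries 1, 2 and 3. The 2 controls lay farther apart than any pair of labelled libraries and enclosed all 3. The log2 fold change was 0.00 (SE 0.22, 95% interval −0.49 to 0.50, limma adjusted p = 0.99), and its sign turned under several scalings, among them equal totals (−0.21). Of 12 other genes of filaments and of the reactive state of glia 1 rose, 1 fell and 10 did not pass. Cd44, a hyaluronan receptor, rose by 1.07 on the log2 scale (SE 0.23, adjusted p = 0.012), and Stat3, a transcription factor of reactive glia, fell by 1.45 (SE 0.27, adjusted p = 0.0068). Gfap, the filament of astrocytes and reactive Müller glia, had 308 and 481 in control and 9.13, 0.940 and 220 in labelled libraries 1, 2 and 3 (adjusted p = 0.082, and 0.0079 without labelled library 3). The cytokine receptor Osmr had −1.94 (adjusted p = 0.15).

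Gpr37, a receptor proposed to bind prosaposin (chromosome 6, 25668523 to 25689980), had 41974 and 39969 in control and 24282, 20529 and 26230 in labelled libraries 1, 2 and 3. The controls nearly coincided and every labelled library was well below them. The change was 1.74-fold downward (log2 fold change −0.80, SE 0.15, 95% interval −1.13 to −0.47, limma adjusted p = 0.0064). Its closest relative Gpr37l1 was under the filter and was not tested. Of 7 tested relatives and partners of Dkk3 and Gpr37, 0 rose, 1 fell and 6 did not pass. The endothelin receptor Ednrb fell by 0.71 (adjusted p = 0.039), a call lost without any 1 of the 3 labelled libraries, with quantile normalization (adjusted p = 0.071) and with the replicate block (adjusted p = 0.11). Kremen1, a receptor of Dickkopf proteins, had −0.45 (adjusted p = 0.19), and Dkkl1, a relative of Dkk3, had −1.92 (adjusted p = 0.34), with 181 and 187 in control and 15.97, 15.04 and 428 in the labelled libraries.

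**Figure D2:**
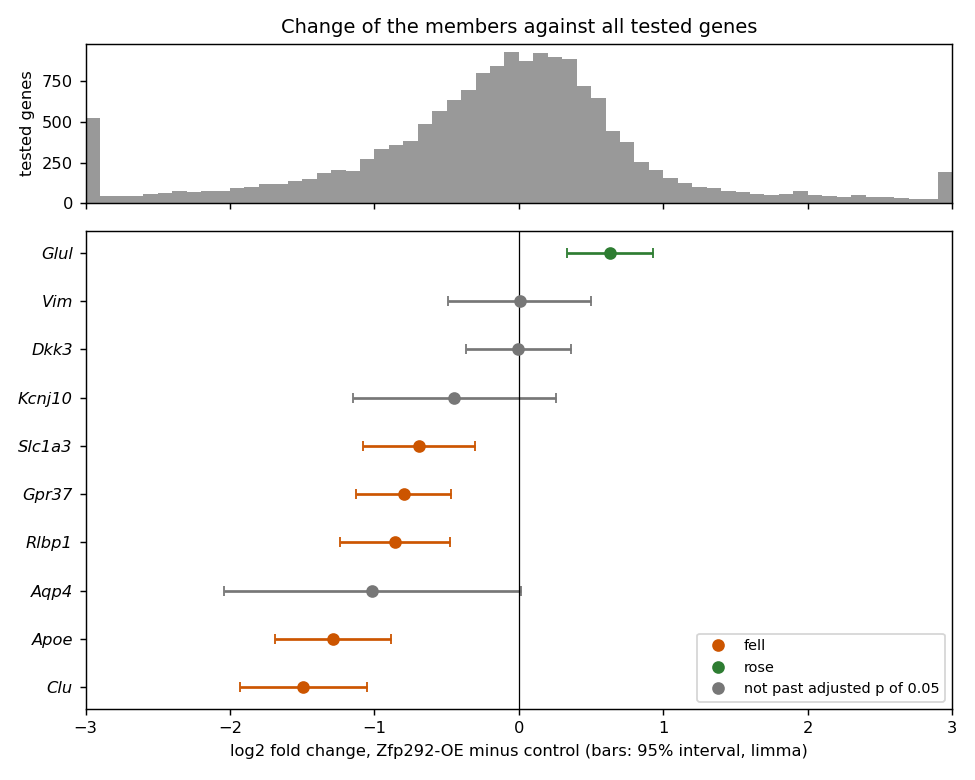
Below, log2 fold change (libraries labelled Zfp292-OE minus control, horizontal axis) of each of the 10 genes with its 95% interval from limma, coloured by whether it fell, rose or did not pass. Above, the number of tested genes by the same log2 fold change, with values beyond the axis counted in the end bins; 9 of the 10 points lie between −1.29 and 0.63, and Clu is at −1.49.

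Levels of the 10 genes were set side by side per kilobase of exon (GENCODE vM21). Apoe was the highest in control, at 230423 per kilobase, followed by Rlbp1 and by Dkk3 (19038), Slc1a3 (16341), Vim (9800), Clu (7361), Gpr37 (6752) and Glul (4075), with Kcnj10 at 355 and Aqp4 at 80.6. Neighbours whose control libraries overlapped in this order were Dkk3 with Slc1a3, Vim with Clu, and Clu with Gpr37. In the libraries labelled Zfp292-OE Apoe (94382) and Rlbp1 (24719) were still the first and second of the 10, while Glul (6312) went from rank 8 to rank 6 and Clu (2572) from rank 6 to rank 8. In these libraries only Slc1a3 and Vim overlapped as neighbours. The exon model used in the authors' counting is not given in the sources used here, so these per-length levels are approximate.

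Among the 3 libraries labelled Zfp292-OE, library 2 held the lowest value of all 5 libraries for 7 of the 10 genes. These were Rlbp1, Slc1a3, Apoe, Clu, Gpr37, Aqp4 and Kcnj10. Relative to the control mean, Apoe was −1.23, −1.53 and −1.10 on the log2 scale in labelled libraries 1, 2 and 3, and Rlbp1 was −0.82, −1.15 and −0.61. Clu differed less between them, at −1.35, −1.60 and −1.53. The same library had the highest summed level of 10 progenitor genes, at 511640, against 444296 and 386405 in libraries 1 and 3; whether this bears on the glial genes was not tested.

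Of 20 further genes associated with Müller glia, 1 rose, 7 fell and 12 did not pass, against 7.38% of all tested genes that fell, and their median log2 fold change was −0.35. Car14, a membrane carbonic anhydrase, had 50853 and 43348 in control and 20243, 13867 and 19352 in labelled libraries 1, 2 and 3 (log2 fold change −1.42, SE 0.18, limma adjusted p = 0.0011). The caveolar protein Cav1 fell by 2.24 (adjusted p = 0.012) and the GABA transporter Slc6a11 by 0.99 (adjusted p = 0.012). Gpx3, a secreted glutathione peroxidase, rose 2.64-fold (adjusted p = 0.0030), with 1501 and 1794 in control and 3469, 4941 and 4730 in the labelled libraries. Cyp26a1, which degrades retinoic acid, had 1.10 (adjusted p = 0.051) and the peroxiredoxin Prdx6 0.43 (adjusted p = 0.054). With control library 1 or control library 2 left out, limma called none of the 20, although 7 and 10 had an unadjusted p below 0.05.

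Of 13 transcription factors that promote Müller glia or are shared with progenitors, 3 rose, 0 fell and 10 did not pass (median 0.23 on the log2 scale), where 10% of all tested genes rose. The 3 were the Notch effectors Hes1 (1.18, SE 0.14, limma adjusted p = 0.00072) and Hes5 (1.17, SE 0.16, adjusted p = 0.0015), and Id1 (0.92, SE 0.17, adjusted p = 0.0065), which blocks proneural factors. Id3, its relative, had 0.40 (adjusted p = 0.095), and the nuclear factor I gene Nfix had −0.51 (adjusted p = 0.13, 0.043 without labelled library 3 and 0.044 with the replicate block, which pairs libraries by number). Its relative Nfia, chosen after its values were seen, had −0.33 (adjusted p = 0.24).

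**Figure D3:**
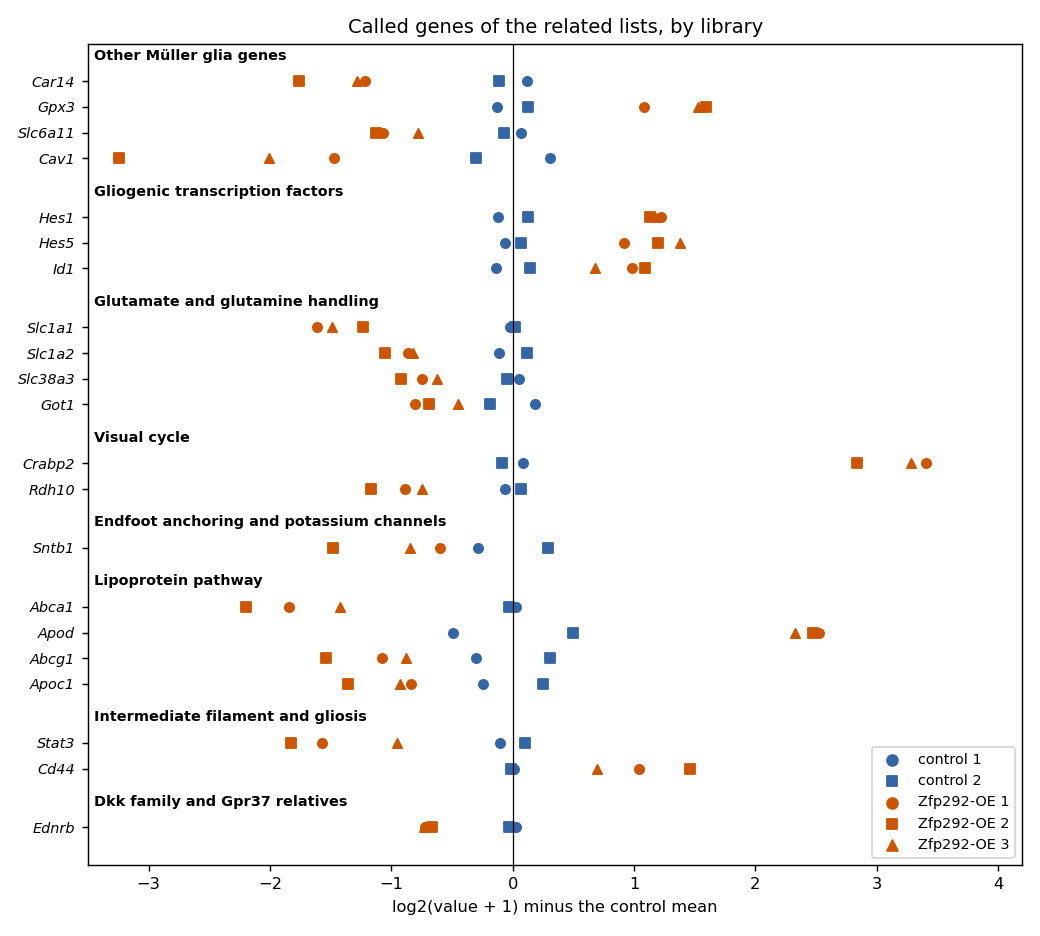
log2(value + 1) minus the gene's control mean (horizontal axis) for the called genes of each related list, up to 4 a list, in the 2 control libraries (blue) and the 3 libraries labelled Zfp292-OE (orange; symbols give the library number). Abca1 and Slc38a3 lie left of both controls in all 3 labelled libraries, while Hes1, Hes5, Crabp2 and Apod lie right of them.

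Some of the 10 genes are also expressed outside Müller glia, Apoe by microglia and astrocytes, Rlbp1 by pigment epithelium, and Vim by vascular and lens cells, so markers of those cells were read in each library. Of 10 microglial genes none was called by limma or edgeR, and 1 had an unadjusted p below 0.05. Their summed level was 5050.4 and 13173 in control and 4988, 8038 and 3062 in the labelled libraries, and Csf1r, Ptprc and Tmem119 were at 0 in labelled library 3. The part of microglia in the fall of Apoe was not tested.

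Of 6 tested astrocyte genes 0 rose and 4 fell, and the summed level of the list of 7 was 55573 and 64235 in control and 23729, 15031 and 28672 in the labelled libraries, with Pax2 at 0 in at least 1 library. Aldoc (39240 and 41718 in control) and Slc1a2 (12876 and 15129), also counted above under glutamate handling, made up most of that sum. The sum moved with Apoe, Rlbp1 and Slc1a3, again lowest in labelled library 2, and the part of astrocytes in their fall was not tested. The median log2 fold change of the 6 was −1.99. Aldh1l1 fell by 3.86 on the log2 scale (limma adjusted p = 0.026), to 6.28% of the control mean, S100b by 2.17 (adjusted p = 0.032), Aldoc by 1.81 (adjusted p = 0.010) and Slc1a2 by the 0.91 given above. Pax2 had 36 reads in control and 2 in the labelled libraries and was under the filter. Of 5 tested pigment epithelium genes 0 were called by limma or edgeR and 0 had an unadjusted p below 0.05. The summed level of the list of 8 was 755 to 772 in control and 1033 to 1602 in the labelled libraries. Dct (578 and 400 in control) and Best1 (172 and 176), neither of them called, made up most of that sum. Rpe65, Pmel, Tyr, Mlana and Lrat were each at 0 in at least 1 library, and the part of pigment epithelium in the level of Rlbp1 was not tested. Vascular genes summed to 44089 and 52191 in control and 36638 to 46076 in the labelled libraries (1 rose and 1 fell of 7 tested). Kdr made up most of that sum, at 39920 and 48368 in control, where Pecam1 had 54.5 and 30.8. The sum thus follows Kdr and is no measure of vascular content. Endothelial Cldn5 rose, from 234 and 203 to 1995, 3227 and 1728 (log2 fold change 3.35, limma adjusted p = 0.00044). Of the other genes listed as endothelial, none was called. Kdr had −0.27 (adjusted p = 0.28), and Pecam1 was low and had 0.50 (adjusted p = 0.74). Cdh5 was at 0 in every library but labelled library 2 (3.76) and was not tested. The pericyte gene Rgs5 fell, from 1233 and 461 to 0, 15.98 and 2.09 (−7.65, adjusted p = 0.0049). Lens genes summed to 766 and 913 in control and 329 to 502 (1 fell of 4), and oligodendrocyte genes to 2449 and 3800 in control and 2448 to 3288 (0 called of 5 by limma or edgeR, 0 with an unadjusted p below 0.05).

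The cell classes that share progenitors with Müller glia also moved. All 8 rod genes fell, with a median log2 fold change of −1.91, and 7 of 8 bipolar genes fell, with a median of −3.92. Of 10 progenitor genes 8 rose and 1 fell (median 1.59). The fall of Rlbp1, Slc1a3 and Gpr37 was smaller than the median fall of the rod genes, and whether the makeup of the sorted cells accounts for it was not tested.

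**Figure D4:**
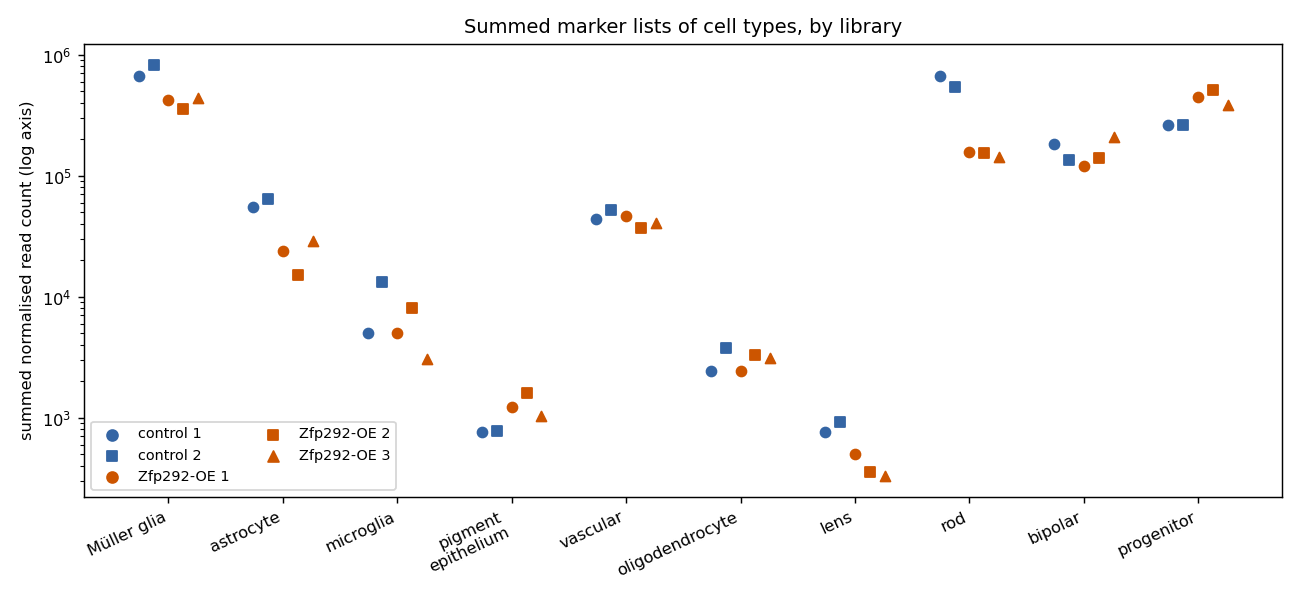
Summed normalised read count of each marker list (vertical log axis) in the 2 control libraries (blue) and the 3 libraries labelled Zfp292-OE (orange). The sums of the 10 Müller glia genes and of astrocyte, lens and rod genes are lower in all 3 labelled libraries than in both controls. Those of progenitor and pigment epithelium genes are higher. The bipolar sum overlaps between the groups, and most of it is Otx2, the 1 bipolar gene that was not called.

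For each of the 10 genes, the gene with the most similar pattern over the 5 libraries was found among 12762 others with a mean of at least 100, by the root mean square difference of log2 values centred on the control mean. The nearest to Gpr37 was Slc38a3, the glutamine carrier described above, at a difference of 0.0370, and the nearest to Glul was Rbm17 at 0.0122. Apoe was nearest to Pgap6 (0.0855), Clu to Ly6h (0.0868), Rlbp1 to Limk1 (0.0522) and Slc1a3 to Emc9 (0.0531). Aqp4 was nearest to Fry (0.0415), Kcnj10 to Slc30a4 (0.0886), Dkk3 to Ryk (0.0336) and Vim to Zfp553 (0.0576). The likeness is a description of these values.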

How the data were processed

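The authors deposited 1 normalised signal value per gene and library, made from reads assigned to genes; per the submitters' processing notes the builds are GRCm38 and mm10. The sources used here do not give the aligner, counter, annotation, strandedness or scaling. Every value was a whole multiple of 1 step per library (100% of values, relative tolerance 1e-06), so whole reads were recovered. Groups follow the labels. Genes with a mean of at least 10 were tested with limma 3.58.1 (trend; R 4.3.3) on log2(value + 1), adjusted by Benjamini-Hochberg over all 16316; count tests with edgeR 4.0.16 (quasi-likelihood, 2621 genes called against 2836 by limma) and DESeq2 1.42.0 on whole reads were alternatives, beside pseudocounts of 0.5 and 10, other filters and scalings, a replicate block and leaving out libraries. The fit was tested on simulated data. Named genes were the 10, and from each related list at most 4 called and 2 others with the smallest p. Some genes of the related lists are not reported here and are not counted in them. The members and lists were chosen with earlier results of these data known, and overlap with lists used before. Fold changes are on the log2(value + 1) scale. Coordinates span whole genes (RefSeq, GRCm38.p6). Tables and plots used Python 3.11.15 and matplotlib 3.10.9.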

Additional observations from a re-analysis of the deposited data

How the results depend on the processing

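Of the 6 called genes, Apoe, Clu, Rlbp1, Gpr37 and Slc1a3 stayed called, downward, under both pseudocounts, both filters, the 3 scalings, edgeR, DESeq2 and the replicate block, and Glul lost its call in 3 of these (equal totals, quantile normalization and the block). The count of 6 ranged from 0 to 6 and that of the 20 further Müller glia genes, 8, from 0 to 8 when each library was left out in turn, both being 0 without control library 1 or 2, where a lone control is assumed to vary like the other group. Both were also 0 without libraries 1 and 3 labelled Zfp292-OE together, an alternative chosen after seeing the data, which leaves 1 labelled library; 7 and 7 then had an unadjusted p below 0.05, and limma called 0 of all genes. With equal totals the median over all genes went from −0.06 to −0.27 (log2). Vim turned negative with TMM (−0.024), equal totals (−0.21), quantile normalization (−0.31), edgeR (−0.069), DESeq2 (−0.040), the replicate block (−0.022), and without control library 1 (−0.39), labelled library 1 (−0.076), labelled library 3 (−0.022) or labelled libraries 1 and 3 (−0.21). Leaving out single libraries, Vim ranged from −0.39 to 0.40 and Dkk3 from −0.25 to 0.24. Dkk3 turned positive with the block (0.031) and without control library 2 (0.24), labelled library 3 (0.031) or labelled libraries 1 and 3 (0.049). Libraries 1 and 2 share only a number between groups (correlation of deviations −0.04 and −0.03); with the replicate block, in which labelled library 3 adds nothing, 5 and 8 genes were called, and Glul had 0.61 (adjusted p = 0.051). Depth limits Aqp4 most, at 175 reads in its lowest library.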
